A study of Solanum lycopersicum with 24 samples.

Results

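This section follows 3 tomato leaf transcripts whose products work in the plastid: a thylakoid lumenal 17.9 kDa protein (XM_004234259.4, gene LOC101248362; called the lumenal protein from here on), phytol kinase (NM_001346814.1, VTE5) and the chloroplastic GTP-binding protein OBGC (XM_010322839.3, gene LOC101268794). They are 3 of the 45845 transcripts in the table. The study listed them as hubs of 1 co-expression module of its total RNA, and they were chosen by their total RNA level, which was lowest after hardening followed by stress. The total RNA values are therefore given as a description with no test. It was assumed that the polysome and monosome libraries were not used for that choice, and the p-values of the 3 transcripts rest on this.

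The thylakoid is the inner membrane system of the chloroplast, and its lumen holds the extrinsic subunits of the oxygen-evolving complex, the electron carrier plastocyanin and many small proteins, some of unknown function. Phytol kinase phosphorylates the phytol tail released when chlorophyll is broken down, and the phosphorylated product can enter the synthesis of tocopherol, the vitamin E antioxidant of plastid membranes. OBGC belongs to the Obg family of GTPases, which in bacteria bind ribosomal subunits, and in Arabidopsis the plastid form is needed for chloroplast development. Leaf polysomes are mRNAs loaded with several ribosomes, whereas monosomes carry 1 ribosome.

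The leaves came from 28-day-old plants of the tomato selection line YaLF grown at 25 °C. In the Combo condition plants were hardened at 6 °C for 5 days and then held at 0 °C for 2 h. In the Hardening condition they received the 5 days at 6 °C alone, in the Stress condition the 2 h at 0 °C alone, and Control plants stayed at the growth temperature. Total RNA, polysomes and monosomes were sequenced from each condition in 2 libraries, 24 in all, and the unit is TPM, a relative abundance within a library that allows for transcript length. The headings of the table call the 2 libraries biological replicates and the study's methods call them technical repeats, so the p-values below measure only the spread between libraries. Leaves of the Combo and Stress conditions were collected later in the day than those of Hardening and Control, and time of day cannot be told apart from the 0 °C treatment. In these bulk samples, fewer cells that express a gene and less RNA per cell cannot be told apart either. The leaf genes rbcS1 and RBCS4, which encode small subunits of Rubisco, summed to between 6325 and 93428 TPM in every library, while the fruit genes EXP1, E8 and PG2 summed to at most 1.93 TPM. In the Control polysomes the 10 most abundant transcripts held 55.7% and 60.0% of all TPM, against 11.02% and 12.5% in the Combo polysomes.

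Before the results, the labels were set against 4 genes that hardening moved in total RNA. LE25, a late embryogenesis abundant protein of the kind that accumulates in cold and drought, had 1883 and 1727 TPM in Combo total RNA and 1003 and 861 TPM in Hardening total RNA, against 0.925 and 1.43 TPM in Stress and 1.54 and 2.66 TPM in Control. On polysomes LE25 stood at 648 and 765 TPM under Combo, 3.92 and 2.43 TPM in those labelled Hardening, 583 and 497 TPM in those labelled Stress and 0.735 and 1.52 TPM under Control. Cab-1D, a chlorophyll a/b-binding protein, ran the other way, with 20.9 and 30.3 TPM in Combo polysomes, 6677 and 6673 TPM in those labelled Hardening, 14.9 and 16.2 TPM in those labelled Stress and 2035 and 1804 TPM in Control polysomes. The aldo-keto reductase AKR4B was high and low in the same groups as LE25, and CAB12 in the same groups as Cab-1D. Monosomes showed the same split into high and low groups as polysomes. The order of the high groups varied. LE25 was higher in Combo than in the libraries labelled Stress on polysomes and lower in monosomes, and AKR4B was lower in Combo on polysomes. In both ribosome fractions the libraries labelled Hardening and Stress thus went against their labels in these genes, whereas Combo and Control libraries did not. These genes mainly separate hardened from unhardened leaves. In total RNA Cab-1D averaged 17.2 TPM in Combo and 17.6 TPM in Hardening, against 3924 TPM in Stress and 3544 TPM in Control. They therefore cannot show that ribosome libraries labelled Combo are not Hardening, or that those labelled Control are not Stress. The Combo and Control labels were taken as given. No library was regrouped. Values of these 2 groups are given below under their labels, and directions drawn from them hold for the labelled libraries only.

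**Figure D1:**
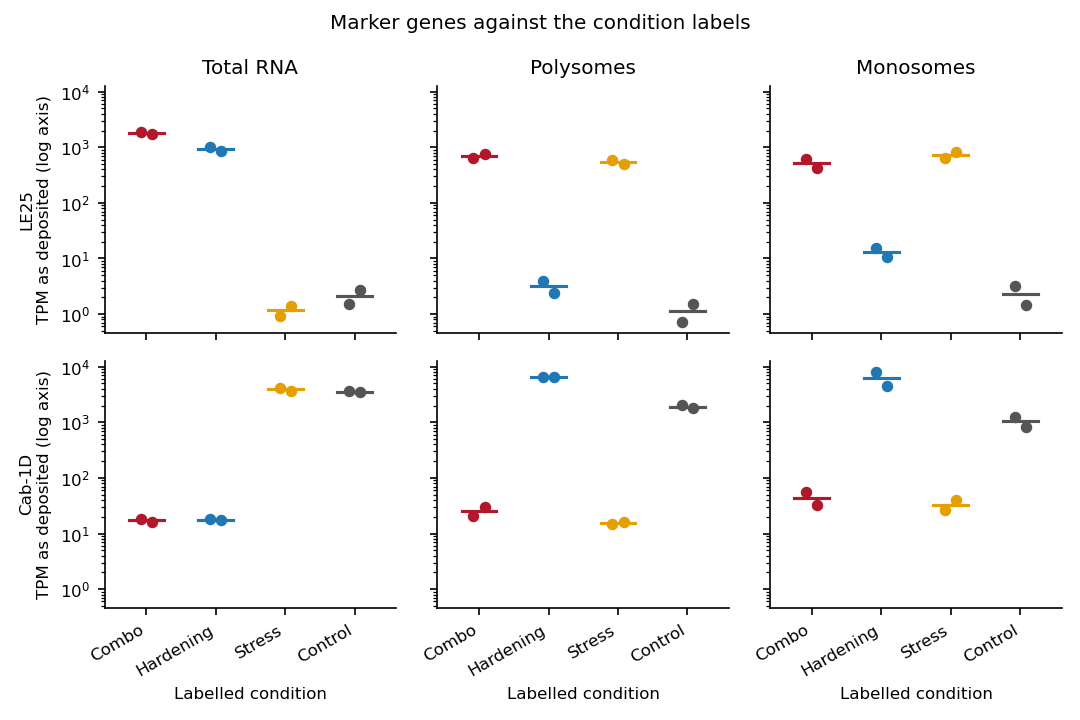
TPM as deposited (vertical log axes) of LE25 and Cab-1D in total RNA, polysomes and monosomes, by labelled condition, with 1 point per library and a bar at the mean of 2 libraries. LE25 is high in Combo and Hardening total RNA but high in the polysome and monosome libraries labelled Combo and Stress, and Cab-1D shows the reverse.

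In total RNA all 3 transcripts were lowest in the Combo libraries, by the choice that selected them. The lumenal protein had 10.8 and 11.2 TPM in Combo, 25.1 and 24.1 TPM in Hardening, 29.3 and 30.4 TPM in Stress and 27.5 and 27.4 TPM in Control. In TPM as deposited, Hardening and Stress thus lay close to Control and Combo was low, but after the scaling described below Hardening lay under Control as well. VTE5 differed least, with 15.9 and 17.0 TPM in Combo, 19.7 and 18.7 TPM in Hardening, 20.9 and 19.8 TPM in Stress and 19.4 and 20.0 TPM in Control. The OBGC transcript was scarce throughout, with 0.519 and 0.613 TPM in Combo, 1.71 and 1.74 TPM in Hardening, 2.48 and 1.57 TPM in Stress and 1.82 and 1.75 TPM in Control. For each of them both Combo libraries lay below the other 6 total RNA libraries in TPM, which held for 15.3% of transcripts with a mean of at least 1 TPM. On the log2(scaled TPM + 1) scale, where each library was first scaled to the others, Combo minus Control was -1.56 for the lumenal protein, -0.56 for VTE5 and -1.01 for OBGC. Combo minus Hardening was -1.07, -0.19 and -0.76 in the same order of transcripts, and Combo minus Stress was -1.54, -0.46 and -1.02. Scaled means were also lower in Hardening than in Control. They were 14.2 and 19.7 for the lumenal protein, 11.1 and 14.1 for VTE5, and 0.998 and 1.28 for OBGC. The log2 scale with 1 added understates the change of OBGC, whose level is near 1.

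**Figure D2:**
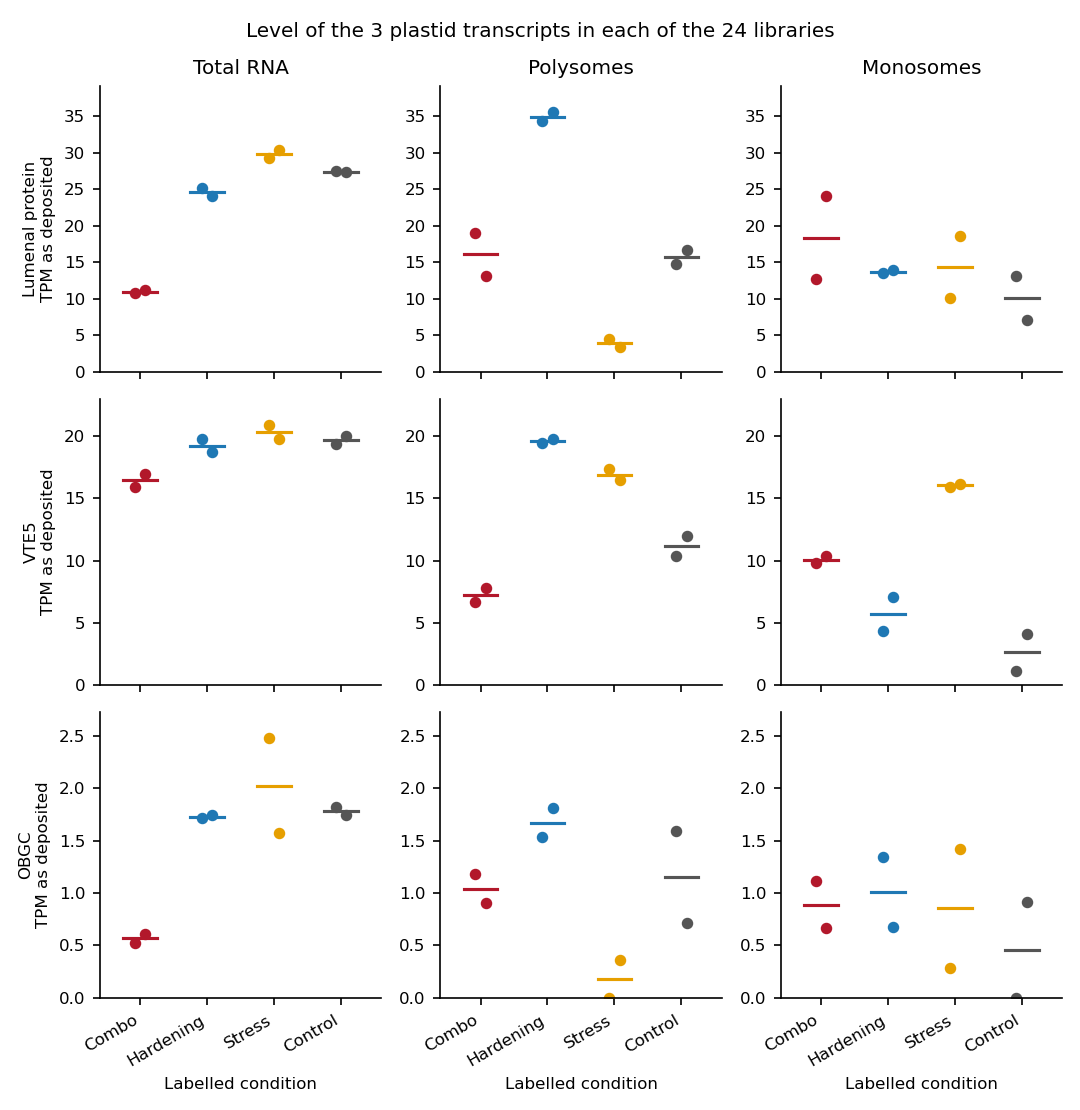
TPM as deposited of the 3 transcripts in total RNA, polysomes and monosomes, by labelled condition, with 1 point per library and a bar at the mean of 2 libraries. In total RNA the Combo points are the lowest in each row, in polysomes this holds for VTE5 alone, and in monosomes for none.

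The genes of the plastid around them were low in Combo total RNA as well, but with another profile. Of 5 thylakoid lumen proteins with a symbol, all 5 were Down in total RNA in Combo minus Control (adjusted p under 0.05 and log2 change under -1 in limma, both of which a value must meet to pass), with a median log2 change of -3.80, against 0.05 over all transcripts tested and 19.3% of transcripts Down and 16.3% Up. They were the oxygen-evolving complex genes PSBO, OEE1, PSBP and PsbQ, not all of which need encode different subunits, and the plastocyanin gene PETE. In Combo minus Hardening none of the 5 passed, since 4 had an adjusted p under 0.05 but all changes lay between -0.86 and -0.20, with a median of -0.49, beside 2.32% of all transcripts Down and 1.87% Up. PSBO averaged 291 ± 4.58 TPM in Combo, 535 ± 18.0 TPM in Hardening, 3300 ± 263 TPM in Stress and 3386 ± 112 TPM in Control (SD, n = 2). PSBO was thus already low after hardening alone, where the lumenal protein still had 24.6 ± 0.744 TPM, against 27.4 ± 0.104 TPM in Control. After scaling these means of the lumenal protein were 14.2 and 19.7. In Combo minus Stress all 5 were Down again, beside 19.1% of transcripts Down and 17.1% Up.

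The 17 photosystem and chlorophyll a/b-binding proteins gave 16 Down and 1 Up in total RNA in Combo minus Control, with a median log2 change of -5.66. PsbQ belongs to both lists. Cab-1D averaged 17.2 ± 1.24 TPM in Combo, 17.6 ± 0.457 TPM in Hardening, 3924 ± 273 TPM in Stress and 3544 ± 121 TPM in Control. The gene that rose was ELIP, an early light-induced protein that binds pigments freed under light stress, at 408 ± 18.0 TPM in Combo, 2433 ± 209 TPM in Hardening, 80.4 ± 1.61 TPM in Stress and 83.3 ± 4.40 TPM in Control. In Combo minus Hardening 2 of the 17 were Down, namely ELIP at -2.55 and PSBS, a photoprotective subunit of photosystem II, at -1.05. On polysomes ELIP averaged 588 TPM in Combo and 80.7 TPM in the libraries labelled Stress, and PSBS 443 and 130 TPM. Whether the labels play a part in this was not tested. Of 3 genes of chlorophyll synthesis and breakdown, the protochlorophyllide oxidoreductases POR and POR2 had log2 changes of -5.35 and -3.88 in Combo minus Control, both Down, and SGR1, the stay-green protein that starts chlorophyll breakdown, rose by 2.79. In the phytol and tocopherol list, besides VTE5, symbols matched only transcripts of TMT, TMT1 and TMT2, whose products the symbol table does not give. Of 4 of these that could be tested, 3 were Down in Combo minus Control. The plastid GTPase list held only FtsZ1, which divides plastids, and it did not pass, at 53.1 ± 1.11 TPM in Combo and 48.1 ± 2.71 TPM in Control.

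On polysomes VTE5 was the transcript that stood lowest in Combo. It had 6.65 and 7.82 TPM in Combo polysomes, 19.5 and 19.8 TPM in those labelled Hardening, 17.4 and 16.4 TPM in those labelled Stress and 10.4 and 12.0 TPM in Control polysomes. Both Combo libraries lay below the other 6 polysome libraries in TPM, which held for 1.03% of transcripts with a mean of at least 1 TPM. That share is low in part because the median log2 change in Combo minus Control was 1.44 in TPM as deposited. It was not counted after scaling, where the median was 0.31. After scaling, the log2 change of VTE5 in Combo minus Control was -1.92 (SE 0.17, limma adjusted p = 0.000175). It was -1.80 against the polysomes labelled Hardening (SE 0.17, adjusted p = 0.000235) and -1.59 against those labelled Stress (SE 0.17, adjusted p = 0.00178), so VTE5 fell whichever of the other conditions it was set against. With TPM as deposited the change against Control was -0.56 (adjusted p = 0.0133), which keeps the direction but is no longer Down.

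The lumenal protein did not have its lowest polysome level in Combo. It had 19.0 and 13.2 TPM in Combo polysomes, 34.3 and 35.6 TPM in those labelled Hardening, 4.51 and 3.396 TPM in those labelled Stress and 14.7 and 16.7 TPM in Control polysomes. The libraries labelled Hardening and Stress lay clear of all others on opposite sides, while in TPM as deposited Combo and Control overlapped. The log2 change of scaled values was -1.62 against the polysomes labelled Hardening (SE 0.21, adjusted p = 0.000887) and 1.24 against those labelled Stress (SE 0.21, adjusted p = 0.00737), a fall and a rise. Without Combo replicate 1 the second was 0.98 (adjusted p = 0.037) and no longer Up. Against Control it was -1.41 (SE 0.21, adjusted p = 0.00148), but this call rests on the scaling. The scaled values were 14.8 and 10.3 in Combo polysomes and 31.7 and 41.1 in Control polysomes, and without scaling the change was 0.01 (adjusted p = 0.962). In this comparison the median over all transcripts was 0.31 after scaling and 1.44 without it.

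The OBGC transcript had 1.18 and 0.906 TPM in Combo polysomes, 1.53 and 1.81 TPM in those labelled Hardening and 1.59 and 0.715 TPM in Control polysomes. In those labelled Stress it was listed at 0 in 1 library and at 0.363 TPM in the other. Its log2 change did not pass the test, at -0.84 in Combo minus Control (SE 0.31, 95% interval -1.58 to -0.09, adjusted p = 0.0581), -0.63 against the polysomes labelled Hardening (interval -1.37 to 0.11, adjusted p = 0.138) and 0.51 against those labelled Stress (interval -0.24 to 1.25, adjusted p = 0.276). The Control library decided the first of these, since without Control replicate 2 the change was -1.33 (adjusted p = 0.0118). All 3 transcripts passed the filter on low values in polysomes, a mean scaled TPM of at least 1. OBGC passed it narrowly, at 1.11, and fell below it when 1 Control library was left out.

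Read against all transcripts tested in polysomes, 15.5% were Down and 25.1% Up in Combo minus Control. The shares were 18.8% Down and 17% Up against the polysomes labelled Hardening, and 4.78% Down and 10.8% Up against those labelled Stress. Of the 3 transcripts, 2 were Down in the first comparison, 2 in the second, and 1 Down and 1 Up in the third. Scaling moved the split of the calls, with Up making 61.8% of calls in Combo minus Control after scaling and 92.8% without, 47.5% and 70.4% against the polysomes labelled Hardening, and 69.4% and 91.9% against those labelled Stress. The listed plastid genes were again far from these 3 in size. The 5 lumen proteins were all Down on polysomes in Combo minus Control with a median of -3.93, and in Combo minus the libraries labelled Stress 1 of the 5 passed, PsbQ, which was Up at 1.16. SGR1 rose by 3.25 and POR fell by 4.59 on Combo polysomes against Control polysomes.

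**Figure D3:**
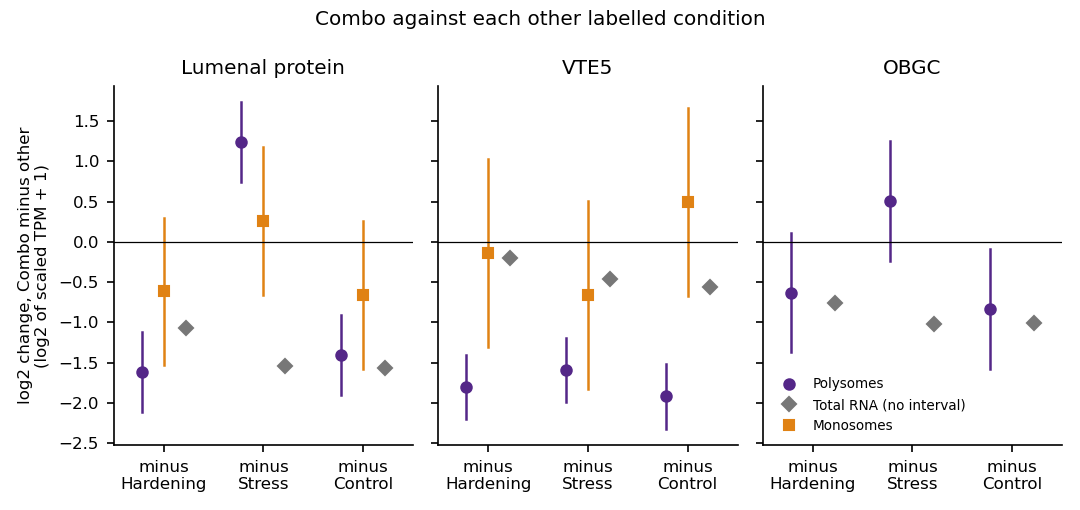
The log2 change of scaled TPM in Combo minus Hardening, Stress and Control (horizontal axis, by label) for the 3 transcripts, with 95% limma intervals in polysomes and monosomes and points without interval in total RNA, which chose the transcripts. The polysome points of VTE5 lie between -1.92 and -1.59, those of the lumenal protein lie on both sides of 0, and OBGC has no monosome points because it was below the filter there.

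In monosomes neither VTE5 nor the lumenal protein passed the test in Combo, and OBGC could not be tested. VTE5 had 9.78 and 10.3 TPM in Combo monosomes, 4.36 and 7.04 TPM in those labelled Hardening, 15.9 and 16.2 TPM in those labelled Stress and 1.11 and 4.12 TPM in Control monosomes. By the deposited TPM the Combo libraries lay above Control, whereas after scaling Combo minus Control was 0.50 (SE 0.49, 95% interval -0.67 to 1.67, limma adjusted p = 0.442). The Control libraries differed several-fold from each other, and without Control replicate 2 the change was 1.30 (adjusted p = 0.0208). Against the monosomes labelled Hardening it was -0.14 (interval -1.31 to 1.03) and against those labelled Stress -0.66 (interval -1.83 to 0.50). The lumenal protein had 12.7 and 24.05 TPM in Combo monosomes, 13.5 and 13.9 TPM in those labelled Hardening, 10.1 and 18.5 TPM in those labelled Stress and 13.1 and 7.05 TPM in Control monosomes. The range of the Combo libraries overlapped with that of each other condition. Its log2 change in Combo minus Control was -0.66 (SE 0.39, interval -1.58 to 0.26, adjusted p = 0.206). OBGC stayed below the filter, at 1.12 and 0.662 TPM in Combo monosomes, 1.35 and 0.672 TPM in those labelled Hardening, 0.286 and 1.42 TPM in those labelled Stress, and listed at 0 in 1 Control library and at 0.917 TPM in the other.

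Monosome calls were not rare in general. In Combo minus Control 14% of transcripts were Down and 26% Up, and against the monosomes labelled Hardening 12.4% were Down and 13.5% Up. Against those labelled Stress limma called 0.00575% Down and 0% Up, that is 1 transcript and none, while 1193 transcripts had an unadjusted p under 0.05. In TPM as deposited, where the median change in Combo minus Control was 1.57, few transcripts could be lowest in Combo. Both Combo libraries were the lowest of the 8 monosome libraries in 1.03% of transcripts with a mean of at least 1 TPM. Neither the lumenal protein nor VTE5 was among them, and OBGC, with a mean under 1 TPM, was not counted. Without scaling, Up made 94.1% of the calls in Combo minus Control, against 64.9% with it, and 88.4% against the monosomes labelled Hardening, against 52.2% with it.

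The distribution between the ribosome fractions was compared directly, within each labelled condition, in a fit of all 16 polysome and monosome libraries. VTE5 leaned to the polysomes in Control, where polysomes minus monosomes was 2.03 (SE 0.40, 95% interval 1.16 to 2.89, limma adjusted p = 0.0048), and did not in Combo, at -0.42 (interval -1.29 to 0.44). The difference between these 2 values was tested after the data had been seen. It was -2.45 (SE 0.56, adjusted p = 0.0219), where 5.23% of transcripts were Down and 3.64% Up. In 2 of the plastid lists genes moved the same way, against a median of -0.15 over all transcripts. Of the 17 photosystem and chlorophyll a/b-binding proteins 10 were Down (median -1.44), and 2 of the 5 lumen proteins (median -1.02). None of the 3 genes of chlorophyll synthesis and breakdown passed (median -0.89), nor did FtsZ1 (-0.26). Of 3 TMT transcripts tested 1 was Down, and the highest stood at 0.44. The VTE5 difference passed in 8 of 14 alternative fits, and its Control value did not pass when only the Control libraries were fitted (1.82, adjusted p = 0.127). In the libraries labelled Hardening VTE5 stood at 1.23 (adjusted p = 0.0594) and in those labelled Stress at 0.54 (adjusted p = 0.462).

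The lumenal protein showed no such difference that passed. Polysomes minus monosomes was -0.16 in Combo (interval -0.87 to 0.55), 0.83 in the libraries labelled Hardening (adjusted p = 0.112), -1.11 in those labelled Stress (adjusted p = 0.0579) and 0.62 in Control (adjusted p = 0.197). Its Combo minus Control difference was -0.78 (SE 0.46, adjusted p = 0.332). OBGC, with a mean scaled TPM of 0.963 over these libraries, was not tested. Over all transcripts the polysome side was called Up in 0.317% and Down in 0.0453% in Combo, 7.19% and 3.53% in the libraries labelled Hardening, 3.03% and 3.61% in those labelled Stress, and 10.4% and 5.74% in Control. Without scaling the split of calls moved in the libraries labelled Hardening, where Up made 92.7% against 67.1% with scaling, and in those labelled Stress, where it made 10.3% against 45.6%.

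**Figure D4:**
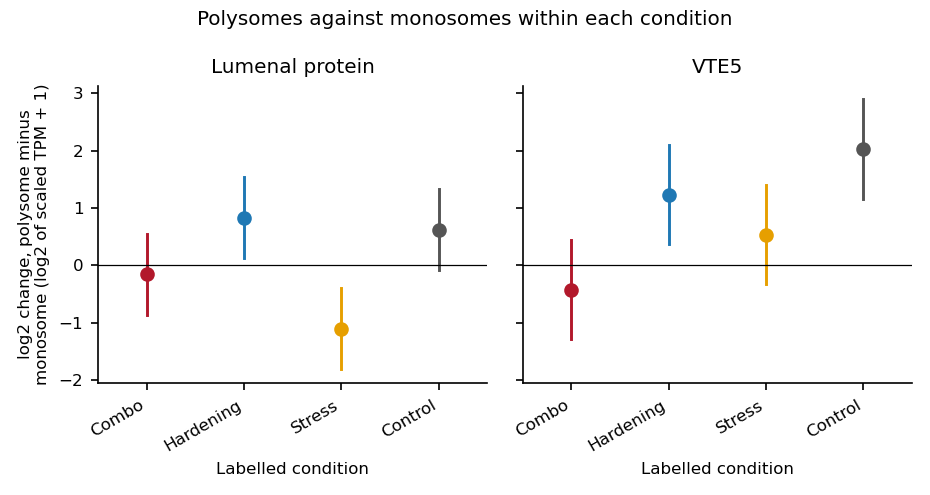
The log2 change of scaled TPM in polysomes minus monosomes within each labelled condition for the lumenal protein and VTE5, with 95% limma intervals. The VTE5 point falls at -0.42 in Combo and at 2.03 in Control, and the interval of the lumenal protein in Combo includes 0.

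The level on polysomes was also set against total RNA in Combo and Control. There the marker genes matched the labels, but only as far as they separate hardened from unhardened leaves. The pairing of polysomes with total RNA thus rests on the labels. As total RNA chose the transcripts, these ratios are a description. The log2 ratio of polysomes to total RNA was -0.71 ± 0.16 for VTE5 in Combo and 0.82 ± 0.27 in Control, that of the lumenal protein was 0.82 ± 0.35 in Combo and 0.84 ± 0.26 in Control, and that of OBGC was 0.43 ± 0.13 in Combo and 0.62 ± 0.48 in Control (SD combined from 2 libraries of each fraction). VTE5 thus had a lower ratio in Combo than in Control by more than the spread, while the ratios of the lumenal protein and OBGC differed by less. This order depends on the scaling. With TPM as deposited the ratio was -1.09 in Combo and -0.77 in Control for VTE5, 0.49 in Combo and -0.77 in Control for the lumenal protein, and 0.38 in Combo and -0.40 in Control for OBGC. For monosomes the ratio of VTE5 was -0.27 ± 0.10 in Combo and -1.28 ± 1.14 in Control.

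Ordered over the 12 groups by scaled TPM, VTE5 had its lowest mean in Combo polysomes, at 5.64, followed by Control monosomes at 6.24, Combo monosomes at 8.002, the monosomes labelled Hardening at 9.09 and Combo total RNA at 9.86. Each of these groups overlapped with its neighbour in that order. Its highest mean was in Control polysomes, at 25.9. Such an order across fractions depends on the scaling. In TPM as deposited VTE5 had its lowest mean in Control monosomes, at 2.61, and its highest in Stress total RNA, at 20.3, against 11.2 in Control polysomes. The lumenal protein was lowest in the polysomes labelled Stress, at 4.58, then in Combo total RNA, at 6.57, and these did not overlap. It was highest in the polysomes labelled Hardening and in Control polysomes, at 40.3 and 36.4, which did overlap. As deposited these groups averaged 35.0 and 15.7 TPM, and Control total RNA 27.4 TPM. OBGC ranged between 0.224 in the polysomes labelled Stress and 2.59 in Control polysomes, with overlap between 10 of the 11 pairs of neighbours. Its highest mean as deposited was 2.02 TPM, in Stress total RNA.

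The OBGC gene has 3 transcripts in the table, and XM_010322839.3 was the smallest of them in total RNA. The gene as a whole summed to 5.22 to 5.68 TPM in Combo total RNA, 8.45 to 8.85 TPM in Hardening, 15.6 to 16.5 TPM in Stress and 11.2 to 11.5 TPM in Control, so the sum too was lowest in Combo. The selected transcript made 9.14% to 11.7% of it in Combo, 19.7% to 20.3% in Hardening, 10.02% to 15.04% in Stress and 15.2% to 16.3% in Control. On polysomes the sum was 3.87 to 5.12 TPM in Combo, 10.7 to 11.3 TPM in the libraries labelled Hardening, 1.74 to 2.78 TPM in those labelled Stress and 2.15 to 3.64 TPM in Control. The selected transcript varied there between 0% and 74.1% of the gene, and estimates that split reads between transcripts of 1 gene are uncertain at this level. For the sum the polysome change passed in Combo minus the libraries labelled Hardening, at -1.501 after scaling (limma adjusted p = 0.00288), where that of the single transcript did not. In Combo minus Control it was -0.86 after scaling (adjusted p = 0.032) and did not pass, whereas the deposited sums were higher in Combo than in Control.

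**Figure D5:**
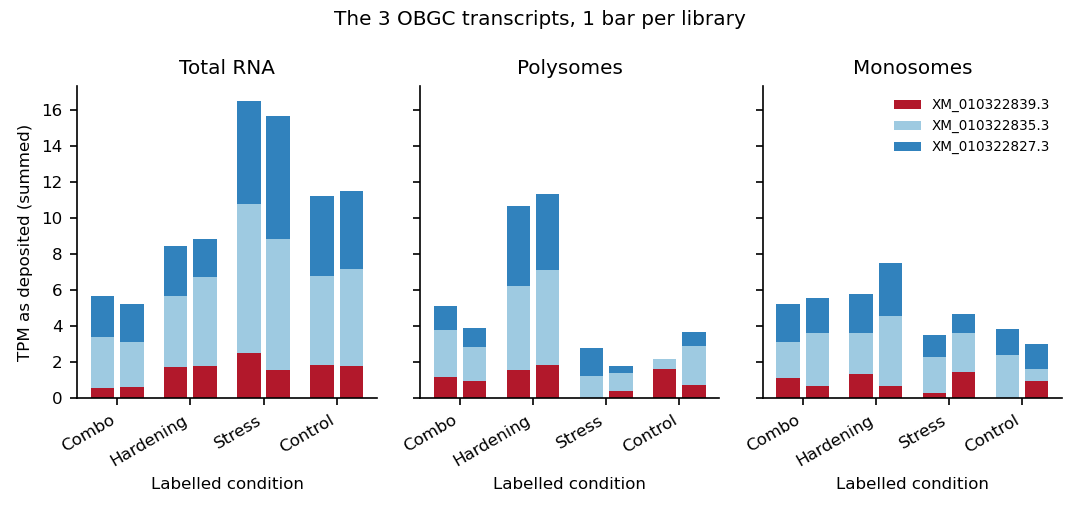
TPM as deposited of the 3 OBGC transcripts, stacked to the gene's sum, with 1 bar per library by labelled condition in total RNA, polysomes and monosomes. The selected transcript XM_010322839.3, at the foot of each bar, is the smallest share of the Combo total RNA bars, whose sums of 5.22 to 5.68 TPM are the lowest in total RNA.

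Candidates were the 1094 named transcripts whose mean reached 5 TPM, and those with the profile nearest to each of the 3 over all 24 libraries were found by the root mean square difference of centred log2(scaled TPM + 1) values, as a description. Nearest to the lumenal protein were Fad7, an omega-3 fatty acid desaturase of the chloroplast, at 0.30, CAT2, a catalase, at 0.33, ABC1K3 at 0.38 and PHO1a at 0.40, against a median of 1.11 over the candidates. VTE5 had no neighbour as close, with PHYB1, a phytochrome B photoreceptor, at 0.55, GR at 0.55, ABCB25 at 0.57 and CycA3 at 0.58, against a median of 1.09. Nearest to OBGC were the small GTPase Rab11a at 0.35, LOG6, a cytokinin-activating enzyme, at 0.37, the ethylene receptor ETR5 at 0.42 and IDI1, an isopentenyl diphosphate isomerase, at 0.42, against a median of 0.96. A flat profile would differ by 0.83 from the lumenal protein, 0.69 from VTE5 and 0.53 from OBGC, so the nearest profiles of VTE5 were little closer than a flat one. Between the 3 transcripts themselves the difference was 0.63 for the lumenal protein and OBGC, 0.69 for VTE5 and OBGC and 1.01 for the lumenal protein and VTE5. Over the 8 total RNA libraries alone, which chose them, it was 0.29, 0.18 and 0.42 for the same pairs. Over all 24 libraries neither the lumenal protein nor VTE5 was closer to OBGC than a flat profile.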

How the data were processed

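Total RNA, polysome and monosome libraries of tomato leaves were analysed as deposited. The deposited values are TPM that the authors made with kallisto on RefSeq transcripts of assembly SL3.1, after base calling with bcl2fastq 2.20 per the submitters' processing notes. TPM keep no depth, so no counting error is given, and the count test of edgeR that the authors named was not used. All 24 columns were mapped to a sample.

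Libraries were scaled by a trimmed mean of log ratios (30% of ratios and 5% of levels trimmed, no weights). Values were tested as log2(scaled TPM + 1) with limma 3.58.1 (R 4.3.3, trend, 1 mean per group) where the mean scaled TPM was at least 1, with Benjamini-Hochberg adjustment over all transcripts tested. Up and Down need an adjusted p under 0.05 and a log2 change over 1 or under -1, and only a value that meets both is said to pass. Libraries of 1 fraction were fitted together, and polysomes with monosomes for their difference. The fits were also run on simulated data with few transcripts changed, as many up as down, which cannot check the scaling where many transcripts change.

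The 3 transcripts and the gene lists were chosen with earlier results of these data known. Named genes are the 3 transcripts, the other OBGC transcripts, the 4 nearest profiles of each, 4 label-check genes, and from each list the 2 lowest and 2 highest changes in total RNA. PETE was named to complete its list, after its values were seen. Of the 45845 identifiers, 34881 matched the symbol table and 2458 had a symbol other than a locus number, so the lists hold few genes. The study's methods give a lower hardening temperature than the labels, which were followed. Alternatives were TPM as deposited, a pseudocount of 0.1, no filter, a replicate block, sums per gene, fits of only the groups compared, and leaving out each library. Sequences were not used here.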

Additional observations from a re-analysis of the deposited data

Results flagged for a closer look

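The difference between polysomes and monosomes for VTE5 (NM_001346814.1) was not the same in Combo and Control, by a test of the difference itself that was added after the data had been seen. Polysomes minus monosomes was -0.42 in Combo and 2.03 in Control on the log2 scale, and the difference of -2.45 (SE 0.56) had a limma adjusted p of 0.0219. In TPM as deposited the polysomes had 6.65 and 7.82 and the monosomes 9.78 and 10.3 in Combo, and the polysomes had 10.4 and 12.0 and the monosomes 1.11 and 4.12 in Control. The 2 Control monosome libraries differed from each other more than any other pair of VTE5 libraries did in ratio. After scaling, in separate fits of each fraction, VTE5 in Combo minus Control was -1.92 in polysomes and 0.50 in monosomes. On this scale polysomes thus held the larger part, whereas with TPM as deposited monosomes did (-0.56 in polysomes, 1.75 in monosomes). Which fraction held more of the difference, -2.45 after scaling, therefore depends on the scaling. Leaving out single libraries gave -3.24 to -1.68 with adjusted p between 0.000759 and 0.078, and 5 of these 8 fits did not pass. The fits without a Control monosome library were not among those 5. In the Control monosomes the 10 most abundant transcripts held 64.4% and 68.9% of the TPM, against 17.6% and 10.3% in the Combo monosomes, and their part in the result was not tested.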

How the results depend on the processing

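Directions of the called polysome results held under all alternatives run except one: without scaling, the lumenal protein in Combo minus Control was 0.013. VTE5 in that comparison kept its direction without scaling but was no longer Down (-0.56). Of 256 alternative values in the ribosome fractions, 235 kept their side of the threshold (adjusted p and log2 change). The replicate block changed no call of the 3 transcripts (VTE5 polysomes in Combo minus Control -1.92, adjusted p = 0.000459), and same-numbered libraries did not deviate together in polysomes (mean correlation -0.003) or monosomes (-0.042), as they did in total RNA (0.259).

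Results that newly passed were OBGC on polysomes, summed over the gene, in Combo minus labelled Hardening (-1.501). Also VTE5 in monosomes in Combo minus Control passed without scaling (1.75). In the libraries labelled Hardening, polysomes minus monosomes passed without scaling (1.29 for the lumenal protein, 1.65 for VTE5) and, for VTE5, with only those libraries (1.19) and with sums per gene (1.198). In those labelled Stress, the lumenal protein passed without scaling (-1.58), with a pseudocount of 0.1 (-1.28) and with sums (-1.11). VTE5 no longer passed in fits of only the groups compared, in Control (1.82) and for Combo minus Control (-2.43).

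In total RNA, changes moved by more than the replicate spread without scaling (Combo minus Control -1.25, -0.25 and -0.83 for the lumenal protein, VTE5 and OBGC; Combo minus Stress -1.37 and -0.29 for the lumenal protein and VTE5), with a pseudocount of 0.1 (lumenal protein -1.64, -1.14 and -1.62, OBGC -1.80, -1.43 and -1.80 against Control, Hardening and Stress) and, for OBGC, with sums (-1.201, -0.57 and -1.55). Of 168 ratios to total RNA 30 moved, and 17 of these did so without scaling, where 7 did not, so the polysome ratios depend on it.

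Leaving out single libraries gave, on polysomes, the lumenal protein in Combo minus labelled Stress 0.98 to 1.44. For OBGC on polysomes in Combo minus Control it gave -1.33 to -0.79 in 3 fits, and without 1 Control library OBGC fell below the filter. In monosomes it gave VTE5 in Combo minus Control -0.27 to 1.30. In total RNA it gave, for the lumenal protein, -1.58 to -1.502, -1.16 to -1.02 and -1.55 to -1.47 against Control, Hardening and Stress, for VTE5 -0.29 to -0.13 and -0.52 to -0.38 against Hardening and Stress, and for OBGC -1.25 to -0.79 against Stress. For VTE5 in polysomes minus monosomes, Combo minus Control, it gave -3.24 to -1.68.

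Of 260 alternative counts of Up or Down transcripts, 77 moved by over 1.5 times. On polysomes without scaling, Combo minus Control gave 10997 Up and 857 Down in place of 4451 and 2756, and Combo minus labelled Stress 4769 and 423 in place of 1924 and 849. The causes were not tested.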
